A study of Mus musculus with 13 samples.

Results

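The genes described here are Krt6a, Krt6b, Krt16 and Krt17, the stress keratins, in the epithelium of mouse esophagus and forestomach with and without floxed alleles of p120-catenin. They were taken by symbol, as every probe set listed under exactly these names, and each of the 4 had 1 probe set on the array (10432780 for Krt6a, 10432774 for Krt6b, 10391061 for Krt16 and 10391066 for Krt17). They are 4 of 19934 genes on the array and 4 of its 52 keratin genes, and all 4 passed the filter on low values that left 15875 genes tested. Of the 52 keratin genes, 43 passed.

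Expression was measured on a mouse Affymetrix array in 13 epithelial samples, loosened with dispase and peeled from the tissue; total RNA came from a Trizol extraction and was turned into biotinylated cRNA. The animals were of mixed C57Bl/6 and 129 background, and all of them carried L2-Cre, a Cre recombinase under a viral promoter (L2 of Epstein-Barr virus) that is known to be active in squamous epithelium. Animals labelled Cre/p120 flox/flox have floxed alleles of the p120-catenin gene, Ctnnd1; the protein attaches to the tail of classical cadherins and keeps them at the cell surface. The flox/flox groups were forestomach masses of animals 412, 426 and 510 and esophagus of animals 193, 307, 313 and 335. The controls, labelled Cre/p120 +/+, were forestomach and esophagus of animals 214, 216 and 217, each of which gave both tissues. The flox/flox forestomach was sampled as masses in all animals: genotype and mass cannot be told apart there, and tissue and mass cannot be told apart between the masses and the flox/flox esophagus. Ages were not given in the sources used here. Replicates within a group are different animals. Sex, read from Xist and Y-linked genes, was male for mass 510, flox/flox esophagus 307 and control animals 216 and 217. The other animals were female. The samples hold many cells, so fewer cells of a type and less RNA per cell cannot be told apart.

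Keratins build the intermediate filaments of epithelial cells, and each filament is assembled from pairs of a type II and a type I chain. Krt6a and Krt6b are type II chains, and Krt16 and Krt17 are the type I chains they commonly pair with. In skin they are known from hair follicle, nail and sole at rest, and from the epidermis after wounding, in human psoriasis and in hyperproliferation, where they appear beside the Krt5 and Krt14 pair of basal cells; oral and esophageal epithelium is built mainly on Krt5 and Krt14 in its basal layer and on Krt4 and Krt13 above it. In the mouse genome (RefSeq, assembly GRCm38.p6) Krt6b and Krt6a are neighbours on chromosome 15 and Krt16 and Krt17 are neighbours on chromosome 11. The Krt6 genes are close copies of each other, the probe sequences were not used here, and whether the probe set of one also reads transcripts of the other was not tested.

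Values are intensities on a log2 scale, on which 1 unit is a 2-fold difference, and a gene was called changed at an adjusted p under 0.05 in limma, adjusted over all 15875 genes. All 13 arrays showed the keratins of stratified squamous epithelium at high level: the lowest log2 level on any array was 13.38 for Krt13, 12.73 for Krt4, 12.32 for Krt5 and 11.75 for Krt14. The targeted gene Ctnnd1 had log2 levels of 9.67, 9.91 and 9.51 in masses 412, 426 and 510 and 10.40, 10.14 and 10.23 in control forestomach 214, 216 and 217. It fell by 0.56 in the masses (SE 0.12, adjusted p = 0.0145, limma). In the flox/flox esophagus it had 9.95 to 10.13, against 10.21 to 10.499 in control esophagus, a difference of -0.29 (SE 0.11, adjusted p = 0.637, limma). Which exons the Ctnnd1 probe set covers was not examined here. Mass 426 stood apart: its mean log2 level over 12 glandular stomach genes was 11.29, while the other 12 arrays lay between 5.20 and 5.71. Skeletal muscle genes (19 genes) averaged 7.94 in flox/flox esophagus 307, 9.43 in flox/flox esophagus 335 and 8.19 in control esophagus 214, and 5.50 to 6.07 on the other arrays.

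The masses carried much more of all 4 keratins than control forestomach. Krt16, a type I keratin of injured and, in humans, of psoriatic epidermis, was at 13.27, 11.35 and 13.43 in masses 412, 426 and 510 and at 6.03, 6.13 and 7.19 in control forestomach 214, 216 and 217. Every mass lay above every control, with a gap of 4.17 log2 units between the lowest mass and the highest control. Krt16 rose by 6.24 (SE 0.70, 95% interval 4.70 to 7.77), a 75.4-fold difference (adjusted p = 0.000742, limma), and only 1 of the 15875 genes had a larger rise.

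Krt6a, the type II keratin best known from healing wound edges, had log2 levels of 12.14, 8.69 and 11.75 in masses 412, 426 and 510 and 5.15, 4.80 and 6.08 in control forestomach 214, 216 and 217. The groups did not overlap, mass 426 lay far below the other masses, and control forestomach 216 was under the filter value of 5. Krt6a rose by 5.52 (SE 0.85, interval 3.67 to 7.37), or 45.8-fold (adjusted p = 0.00293, limma), the fifth largest rise of all genes.

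Krt17, a type I keratin also expressed in hair follicles and in skin tumours, was at 12.66, 10.06 and 12.33 in masses 412, 426 and 510 and at 7.65, 7.78 and 8.30 in control forestomach 214, 216 and 217. Again every mass was above every control and mass 426 was the lowest of the masses. Krt17 rose by 3.77 (SE 0.53, interval 2.63 to 4.92), or 13.7-fold (adjusted p = 0.00214, limma).

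Krt6b, the second type II chain, had log2 levels of 13.50, 12.28 and 13.56 in masses 412, 426 and 510 and 10.76, 9.11 and 11.18 in control forestomach 214, 216 and 217. Of the 4 genes its control forestomach lay nearest to the masses, with a gap of 1.11 log2 units between the groups. Krt6b rose by 2.76 (SE 0.79, interval 1.03 to 4.50), or 6.79-fold (adjusted p = 0.0458, limma). This call lies close to the threshold: it was lost in 16 of 28 alternatives, among them the fits without each control forestomach array in turn (adjusted p = 0.0664 to 0.167), without mass 412 (adjusted p = 0.114) and without mass 510 (adjusted p = 0.0984). It was also lost, at the same difference, without each control esophagus array (adjusted p = 0.0558 to 0.0572), flox/flox esophagus 313 (adjusted p = 0.0625) or flox/flox esophagus 335 (adjusted p = 0.0505), which enter only the shared estimate of spread.

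**Figure D1:**
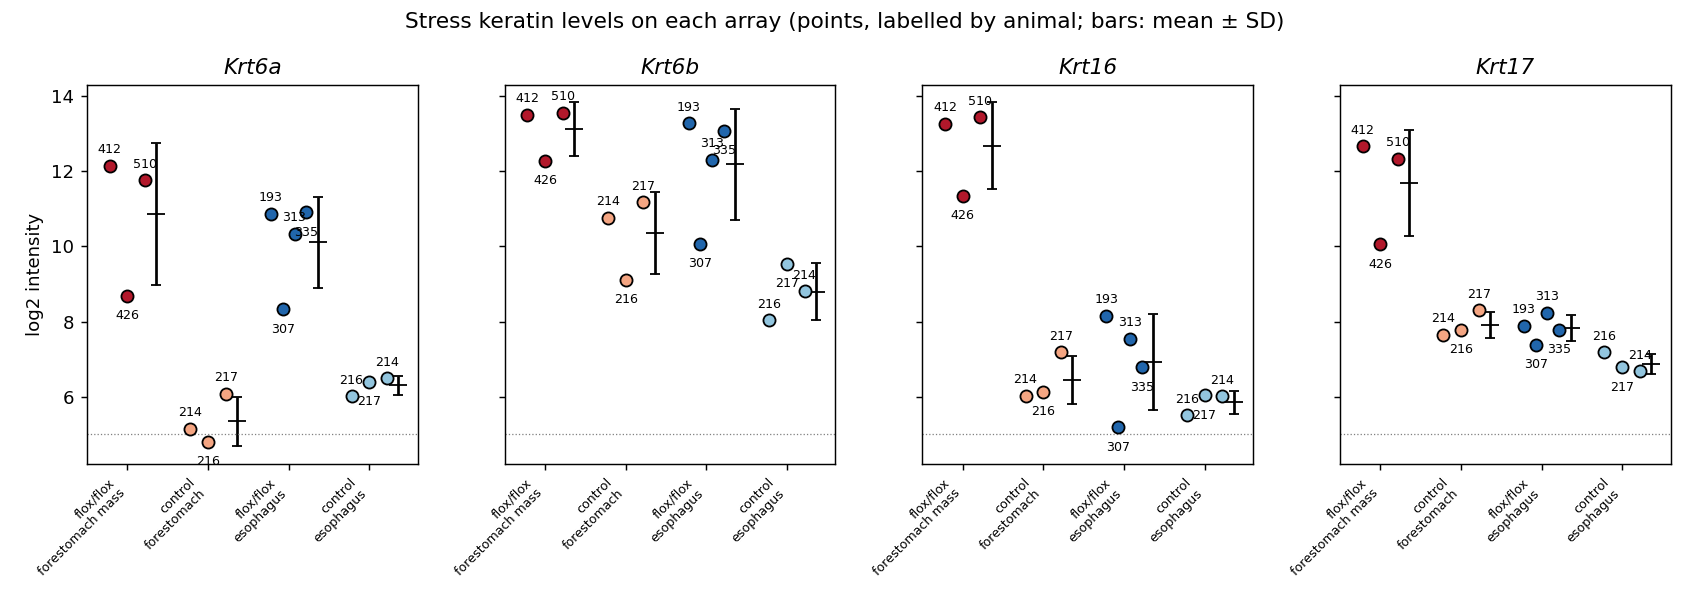
Log2 intensity of Krt6a, Krt6b, Krt16 and Krt17 (1 panel each) in flox/flox forestomach mass, control forestomach, flox/flox esophagus and control esophagus; points are arrays labelled by animal, bars are the mean and SD beside each group, and the dotted line is the filter value of 5. Krt16 is above 11 only in the masses, while Krt6a is above 8 in all masses and all flox/flox esophagus samples, and Krt6b overlaps between control forestomach and flox/flox esophagus.

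Between masses and control forestomach, 4 of 4 genes were thus called higher, where limma called 2.31% of all genes higher, 8.4% lower and 10.7% in either direction. No overlap between the groups with the masses higher was found for 4 of 4, against 10.3% of all genes. The median difference of the 4 genes was 4.65, beside 0.01 over all genes tested. The rise was measured with mass 426 included, whose 4 levels were the lowest of the masses and which carried the glandular stomach transcripts. Without it the differences were 6.90 for Krt16, 6.60 for Krt6a, 4.59 for Krt17 and 3.18 for Krt6b, and all 4 remained called (adjusted p = 2.2e-05 to 0.0407, limma). With the mean of the glandular stomach genes as a covariate, an alternative chosen after seeing the data, they were 6.98, 6.72, 4.65 and 3.25. Fibroblast and matrix genes averaged 8.79, 9.03 and 7.34 in masses 412, 426 and 510 and 7.49, 6.42 and 6.45 in control forestomach 214, 216 and 217. In that list 14 of 14 genes were above 0 in the masses, 0 of them called, and the arrays overlapped. Endothelial genes averaged 7.46, 7.37 and 6.47 in masses 412, 426 and 510 and 6.30, 5.68 and 5.59 in control forestomach 214, 216 and 217, with 9 of 9 above 0, 0 called and no overlap. Macrophage genes averaged 6.43 to 7.29 in the masses and 5.97 to 6.06 in control forestomach, with 10 of 11 above 0, 0 called and no overlap. The part of these 3 lists in the keratin result was not tested. Hair follicle and nail genes, which mark a skin site of resting Krt6a, Krt16 and Krt17, averaged 5.56 to 6.09 on all 13 arrays.

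In the esophagus the differences were larger for the type II pair than for the type I pair, and none was called. Krt6a had log2 levels of 10.87, 8.33, 10.33 and 10.91 in flox/flox esophagus 193, 307, 313 and 335 and 6.50, 6.01 and 6.40 in control esophagus 214, 216 and 217. The groups were 1.83 log2 units apart at their nearest arrays, and animal 307 was the lowest of the flox/flox animals. The difference was 3.81 (SE 0.79, interval 2.07 to 5.54), or 14.0-fold, with an unadjusted p of 0.000461 and an adjusted p = 0.332 (limma).

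Krt6b was at 13.28, 10.07, 12.30 and 13.08 in flox/flox esophagus 193, 307, 313 and 335 and at 8.80, 8.04 and 9.55 in control esophagus 214, 216 and 217. These groups did not overlap either, and animal 307 was again the lowest, 0.52 above the highest control. The difference was 3.39 (SE 0.74, interval 1.77 to 5.01), or 10.5-fold, with an unadjusted p of 0.000686 and an adjusted p = 0.34 (limma). Without animal 307 the difference was 4.09 and Krt6b passed the threshold (adjusted p = 0.0423, limma). Animal 307 was the only male of the flox/flox esophagus, so that fit sets females alone against controls of both sexes.

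Krt16 had log2 levels of 8.15, 5.19, 7.55 and 6.79 in flox/flox esophagus 193, 307, 313 and 335 and 6.01, 5.51 and 6.04 in control esophagus 214, 216 and 217. Animal 307 lay below all controls and the other flox/flox animals above them. The difference was 1.07 (SE 0.66, interval -0.37 to 2.501, adjusted p = 0.837, limma). It was 0.66 without animal 193 and 1.65 without animal 307, with no call in either fit.

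Krt17 was at 7.90, 7.39, 8.24 and 7.78 in flox/flox esophagus 193, 307, 313 and 335 and at 6.68, 7.19 and 6.79 in control esophagus 214, 216 and 217. The groups did not overlap, but animal 307 was only 0.20 above the highest control. The difference was 0.94 (SE 0.49, interval -0.13 to 2.02, adjusted p = 0.774, limma). This SE comes from a spread shared by all 4 groups. The SD of Krt17 was 1.42 in the masses, 0.35 in flox/flox esophagus and 0.27 in control esophagus. Krt17 was called here in none of the 28 alternatives, a fit of the esophagus arrays alone among them (lowest adjusted p = 0.284, limma).

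For the esophagus limma thus called 0 of 4 genes, and it called 2 of all 15875 genes (0.0126%). At an unadjusted p under 0.05 the comparison held 1108 genes, Krt6a and Krt6b among them. Ranked by size of rise among all genes tested, Krt6a was at place 3, Krt6b at 5, Krt16 at 85 and Krt17 at 112. The groups did not overlap, with flox/flox higher, for 3 of 4 genes, against 4.18% of all genes. The median difference was 2.23, beside 0.01 over all genes. Skeletal muscle transcripts were high in 2 of the 4 flox/flox samples and 1 of the 3 control samples. Fibroblast and matrix genes were high there too, averaging 9.03 in flox/flox esophagus 307, 9.47 in 335 and 10.30 in control esophagus 214. The last value lies above every mass, and the remaining esophagus samples had 6.49 to 6.68. Endothelial genes averaged 6.94, 7.38 and 7.37 in 307, 335 and 214, beside 5.37 to 5.87 in the remaining samples. The part of these lists in the keratin values was not tested. A fit without the 3 arrays high in muscle transcripts (307, 335 and 214) was an alternative chosen after seeing the data. Its differences were 4.39 for Krt6a, 3.998 for Krt6b, 2.08 for Krt16 and 1.08 for Krt17 (adjusted p = 0.245 to 0.9999, limma). T and NK cell genes averaged 6.49, 4.94, 5.50 and 5.50 in flox/flox esophagus 193, 307, 313 and 335 and 4.87 to 5.36 in control esophagus. Of the 11 T and NK cell genes on the array, 6 were below the filter value in animal 307 and 2 in animal 193, and their part in the keratin values was not tested.

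**Figure D2:**
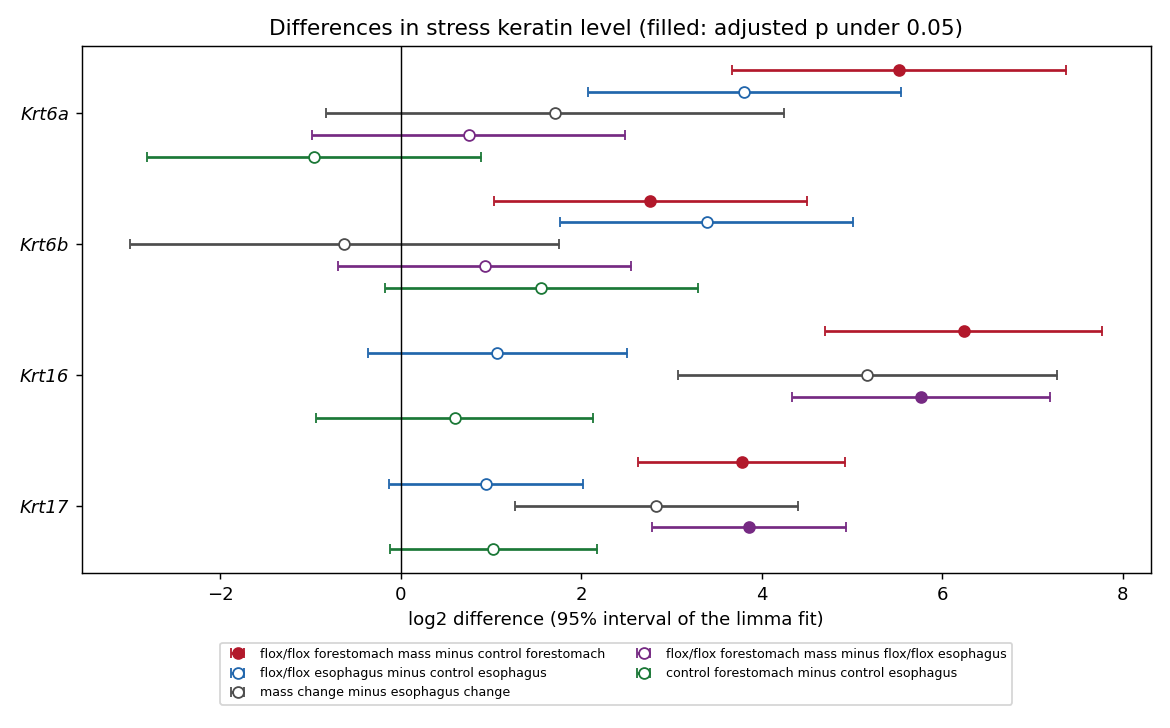
Log2 difference (points) with its 95% interval (bars) for each of the 4 genes in the 5 comparisons, as the colours name them; filled points have an adjusted p under 0.05 in limma. Filled points are found for all 4 genes between masses and control forestomach and for Krt16 and Krt17 between masses and flox/flox esophagus, while the intervals of Krt6a and Krt6b lie above 0 in the esophagus without a call.

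Whether the forestomach and esophagus changes differ was tested as an interaction, the change in the masses minus the change in the esophagus. The type I genes had the larger interactions of the 4, with 5.17 for Krt16 (SE 0.96, interval 3.07 to 7.27, adjusted p = 0.0571) and 2.83 for Krt17 (SE 0.72, interval 1.26 to 4.40, adjusted p = 0.161). For the type II genes it was 1.71 for Krt6a (SE 1.16, adjusted p = 0.692) and -0.62 for Krt6b (SE 1.09, adjusted p = 0.925). Without single arrays the Krt6a value lay between 1.07 (without mass 412) and 2.80 (without mass 426), and the Krt6b value between -1.33 (without flox/flox esophagus 307) and -0.21 (without mass 426, and also without control forestomach 217), with no call. Limma called 0 of 4, where it called 0.139% of all genes (22 genes), and 1664 genes had an unadjusted p under 0.05, with Krt16 and Krt17 among them. The Krt16 value lies at the threshold, and it was called without mass 426 (5.83, adjusted p = 0.0139) and without mass 510 (4.79, adjusted p = 0.04). Krt17 was called without mass 426 (3.65, adjusted p = 0.001). With the replicate block, which keeps the paired tissues of a control animal together, Krt16 was called at the same difference (adjusted p = 0.0216). That the type I and the type II genes differ from each other in this respect was not tested.

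The masses exceeded the flox/flox esophagus in both type I genes, and neither type II gene was called. Krt16 averaged 12.68 ± 1.15 in the masses and 6.92 ± 1.28 in flox/flox esophagus (SD, n = 3 and 4), a rise of 5.76 (SE 0.66) or 54.3-fold (adjusted p = 0.000748, limma). Krt17 averaged 11.68 ± 1.42 in the masses and 7.83 ± 0.35 in flox/flox esophagus, a rise of 3.86 (SE 0.49) or 14.5-fold (adjusted p = 0.00137, limma). Neither gene overlapped between these groups. Krt6a averaged 10.86 ± 1.89 in the masses and 10.11 ± 1.22 in flox/flox esophagus, a difference of 0.75 (interval -0.98 to 2.49, adjusted p = 0.568). Krt6b averaged 13.11 ± 0.72 in the masses and 12.18 ± 1.47 in flox/flox esophagus, a difference of 0.93 (interval -0.69 to 2.55, adjusted p = 0.444). Leaving out single arrays moved these values, for Krt6a to between 0.11 (without mass 412) and 1.84 (without mass 426), and for Krt6b to between 0.23 (without flox/flox esophagus 307) and 1.35 (without mass 426), with no call. Both type II genes overlapped, and their intervals do not show that the levels are alike. Thus 2 of 4 genes were called, against 7% of all genes, and 2 of 4 did not overlap with the masses higher, against 6.78% of all genes. The masses are the upper group in both this comparison and the one with control forestomach, so the values of the comparisons share those arrays.

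Between the tissues of the control animals none of the 4 genes was called in the fit of all arrays. Krt6b averaged 10.35 ± 1.09 in control forestomach and 8.79 ± 0.75 in control esophagus (SD, n = 3 each), a difference of 1.55 (SE 0.79, adjusted p = 0.287). Krt17 averaged 7.91 ± 0.34 in control forestomach and 6.88 ± 0.27 in control esophagus, a difference of 1.03 (SE 0.53, adjusted p = 0.288), with no overlap. Krt16 averaged 6.45 ± 0.64 in control forestomach and 5.85 ± 0.30 in control esophagus, a difference of 0.60 (SE 0.70, adjusted p = 0.671). Krt6a was the one gene with the lower mean in control forestomach, 5.35 ± 0.66 against 6.31 ± 0.26 in control esophagus, a difference of -0.96 (SE 0.85, adjusted p = 0.559). Limma called 0 of 4, against 6.67% of all genes (1059 genes; 3428 had an unadjusted p under 0.05), and 1 of 4, Krt17, did not overlap with forestomach higher, against 18% of all genes. The 3 control animals gave both tissues, and in a fit of the control arrays alone with the animal as a fixed replicate block Krt6b (adjusted p = 0.0104) and Krt17 (adjusted p = 0.0304) passed the threshold at the same differences. Without mass 426, which enters the fit only through the shared estimate of spread, Krt17 was called too (adjusted p = 0.0205, limma).

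The order of the group means differed by gene. For Krt6a it was masses, flox/flox esophagus, control esophagus and control forestomach, and no neighbours in this order differed by limma's call, although flox/flox and control esophagus did not overlap. For Krt6b and Krt16 it was masses, flox/flox esophagus, control forestomach and control esophagus. Here flox/flox esophagus and control forestomach were 1.83 apart for Krt6b (SE 0.74, adjusted p = 0.132) and 0.47 apart for Krt16 (SE 0.66, adjusted p = 0.674), and of the neighbours only the masses and the flox/flox esophagus differed, for Krt16. For Krt17 it was masses, control forestomach, flox/flox esophagus and control esophagus. The masses were called higher than their neighbour, and control forestomach and flox/flox esophagus were 0.08 apart (SE 0.49, adjusted p = 0.932).

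The spread of these genes between animals was wide. The mean SD of the 4 genes was 1.30 in the masses, 0.69 in control forestomach, 1.08 in flox/flox esophagus and 0.39 in control esophagus, while the median gene had an SD of 0.25, 0.12, 0.15 and 0.14 in those groups. Within groups the same animals tended to be low or high for all genes. Mass 426 was the lowest of the masses for 4 of 4 genes, animal 307 the lowest flox/flox esophagus for 4 of 4, and animal 217 the highest control forestomach for 4 of 4. The highest flox/flox esophagus was animal 335 for Krt6a, animal 193 for Krt6b and Krt16, and animal 313 for Krt17. In control esophagus animal 216 was the lowest for Krt6a, Krt6b and Krt16 and the highest for Krt17.

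**Figure D3:**
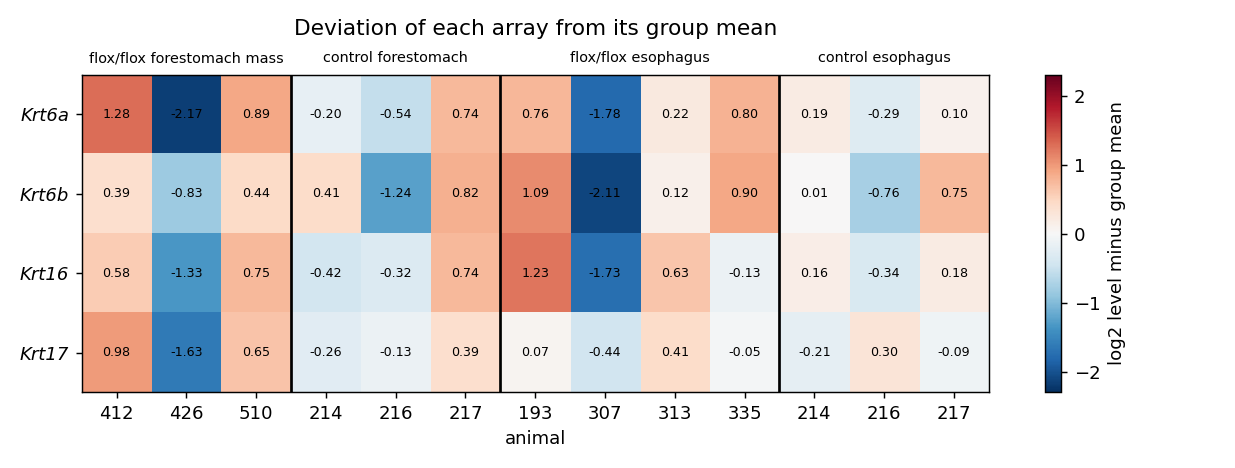
Deviation of each array from its group mean (log2, colour and printed value) for the 4 genes (top to bottom) on the 13 arrays, labelled by animal and grouped as flox/flox forestomach mass, control forestomach, flox/flox esophagus and control esophagus. Mass 426 and flox/flox esophagus 307 are below their group means for all 4 genes.

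This shared variation was measured as the correlation between each pair of genes over the 13 arrays after the group means were subtracted, so the differences between groups do not enter. An exact permutation test took all 5184 ways to reassign arrays within groups, and p-values were adjusted over the 6 pairs. The 13 arrays come from 10 animals, and the 2 tissues of a control animal were reassigned independently. The permutation p-values thus do not take account of that pairing. The type II pair, Krt6a and Krt6b, had r = 0.808 (permutation p = 0.0015, adjusted 0.0093) and rho = 0.731 (permutation p = 0.0025, adjusted 0.015), and r = 0.709 without the 2 arrays farthest from the median of Krt6a. Krt6a and Krt16 had r = 0.894 (permutation p = 0.0123, adjusted 0.0246) and rho = 0.802 (permutation p = 0.0166, adjusted 0.0347), and r = 0.713 without such arrays. Of the 6 pairs the type II pair had the smallest p and Krt6a with Krt16 the highest r. Krt6a and Krt17 had r = 0.841 (permutation p = 0.0276, adjusted 0.0331) and rho = 0.802 (permutation p = 0.0334, adjusted 0.04), and r = 0.652 without such arrays. Krt6b and Krt16 had r = 0.806 (permutation p = 0.0095, adjusted 0.0246) and rho = 0.703 (permutation p = 0.0287, adjusted 0.04), and r = 0.700 without such arrays. The type I pair, Krt16 and Krt17, had r = 0.720 (permutation p = 0.0164, adjusted 0.0246) and rho = 0.769 (permutation p = 0.0174, adjusted 0.0347), and r = 0.521 without such arrays. Krt6b and Krt17 were the loosest pair, with r = 0.427 (permutation p = 0.0766) and rho = 0.445 (permutation p = 0.1373), and did not pass the threshold.

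The correlations rest on few arrays. Leaving out flox/flox esophagus 307 kept r at 0.836 for Krt6a with Krt16, 0.892 for Krt6a with Krt17, 0.615 for Krt6b with Krt16 and 0.790 for Krt16 with Krt17, but the adjusted permutation p was then 0.0984 to 0.132. Leaving out control forestomach 217 (r = 0.703 to 0.886, adjusted permutation p = 0.0642 to 0.0944) or mass 426 (r = 0.582 to 0.867, adjusted permutation p = 0.0741 to 0.192) also ended the calls of those 4 pairs. Without mass 412 or mass 510 the calls of Krt6a with Krt17 (r = 0.798 and 0.823) and of Krt16 with Krt17 (r = 0.724 and 0.686) ended, at adjusted permutation p = 0.0668 to 0.115. The type II pair passed without any single array (r = 0.690 to 0.918), and it passed without the 3 masses as well. Whether transcripts of one Krt6 gene read by the probe set of the other add to this correlation was not tested. Krt6b with Krt17 passed only without control esophagus 216 (r = 0.501, adjusted permutation p = 0.0423). A smaller number of arrays also leaves fewer reassignments to test.

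The differences of the keratins that the stress keratins are known to join were smaller. Krt5, the basal type II keratin, had 13.005, 12.51 and 12.59 in masses 412, 426 and 510 and 12.35, 12.32 and 12.50 in control forestomach 214, 216 and 217, a difference of 0.31 (SE 0.13, adjusted p = 0.152, limma). Krt14, the basal type I keratin and partner of Krt5, differed by 0.66 in the masses (SE 0.26, adjusted p = 0.141) and by 0.39 in flox/flox esophagus (SE 0.24, adjusted p = 0.849). Krt5 differed by -0.01 in flox/flox esophagus (SE 0.12). Krt4, a keratin of the upper layers, fell by 0.56 in the masses (SE 0.13, adjusted p = 0.0178), and its partner Krt13 differed by -0.21 (SE 0.09, adjusted p = 0.194). Trp63, a transcription factor of basal squamous cells, differed by -0.25 (SE 0.15, adjusted p = 0.346).

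Over all genes tested, limma called 2.31% higher and 8.4% lower in the masses. Of the 39 other keratin genes tested, 2 were called higher there and 3 lower, the latter near the share of all genes. The median difference of the 39 was 0.04. The higher ones were Krt7, a keratin of simple epithelium (1.67, SE 0.41, adjusted p = 0.0243), and Krt42, the next gene after Krt17 on chromosome 11 (0.57, SE 0.12, adjusted p = 0.0101). The lower ones were Krt76 (-2.33, adjusted p = 0.00351), Krt23 (-0.85, adjusted p = 0.00981) and Krt4. The largest difference among the other keratins was that of Krt19, a simple-epithelium keratin, at 3.13 (SE 1.11, adjusted p = 0.0987). Its levels were 8.24, 12.14 and 5.84 in masses 412, 426 and 510, against 5.39 to 5.78 in control forestomach. Krt8, Krt18 and Krt20, further simple-epithelium keratins, were at 12.93, 10.49 and 10.21 in mass 426, the one with the glandular stomach transcripts. In mass 412 they were at 7.45, 6.76 and 4.88, and in mass 510 at 8.03, 6.27 and 5.19. In control forestomach they were at most at 7.97, 5.86 and 4.72. In the esophagus 0 of the 39 others were called, against 0.0126% of all genes. Their differences ran between -0.80 for Krt76 and 0.39 for Krt14. Between the control tissues 6 of the 39 were called higher in forestomach and 2 lower, Krt1 (7.42), Krt10 (6.22) and Krt15 (-3.19) among them. Of all genes, 6.67% were called in either direction in that comparison.

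**Figure D4:**
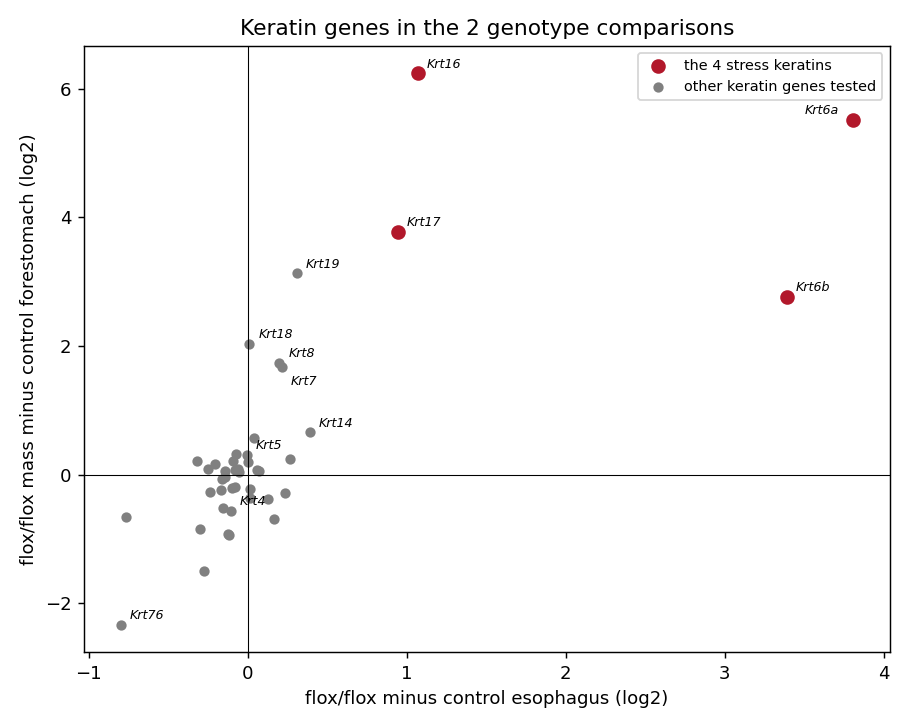
Each of the 43 keratin genes tested, by its log2 difference between flox/flox and control esophagus (x axis) and between flox/flox forestomach mass and control forestomach (y axis); red points are the 4 stress keratins. Krt6a and Krt6b lie to the right, beyond 3 on the x axis, Krt16 and Krt17 lie high with about 1 on the x axis, and the other keratins lie between -1 and 1 on the x axis.

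The genes beside the stress keratins on their chromosomes were looked at for the same pattern. On chromosome 15 the order in the RefSeq table is Krt82, Krt90, Krt75, Gm5414, Krt6b, Krt6a, Krt5, Krt71, Krt72 and Krt73. Of the 8 that are not stress keratins, Gm5414, next to Krt6b, was the one called in the masses (1.06, SE 0.28, adjusted p = 0.0318, limma). It differed by 0.77 in flox/flox esophagus (SE 0.26, adjusted p = 0.583), and Krt5 on the other side of the pair was not called in either tissue. On chromosome 11 the order is Krt15, Krt19, Krt9, Krt14, Krt16, Krt17, Krt42, Eif1, Gast and Hap1. Of the 6 tested beside Krt16 and Krt17 only Krt42 was called in the masses. Over all genes limma called 2.31% higher and 10.7% in either direction in the masses. A single call on each chromosome is too few to read as a result about the neighbours.

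Products known from activated keratinocytes rose in part in the masses. The list was chosen with results of these data known, and its counts are a description. Of 21 alarmin and defence genes tested, 9 were called higher in the masses and 0 lower, with a median difference of 1.45 beside 0.01 for all genes. Over all genes tested the shares called were 2.31% higher and 8.4% lower. Defb4, a beta-defensin, rose by 5.85 (SE 0.37, adjusted p = 4.8e-05), S100a7a, a relative of psoriasin, by 2.47 (SE 0.44, adjusted p = 0.00553), Stfa3, a stefin, by 2.48 (SE 0.51, adjusted p = 0.0112) and Plaur, the urokinase receptor, by 1.25 (SE 0.19, adjusted p = 0.00255). S100a8, S100a9, Lcn2, Serpinb3a and Sprr2h were the other 5. In the esophagus 0 of the 21 were called, with 12 above 0 and a median of 0.28. Defb4 (12.79 to 12.84) and S100a7a (10.47 to 10.95) were already high in control esophagus, where the stress keratins averaged 6.69 to 7.19. No mass exceeded those control levels of Defb4 and S100a7a. Stfa3 and Plaur were higher in every mass than in any control esophagus array. The mean of the 22 genes of this list on the array was 9.96, 8.30 and 10.01 in masses 412, 426 and 510 and 7.24, 7.30 and 7.64 in control forestomach 214, 216 and 217. Mass 426 was the lowest mass here too.

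Of 26 ligands and receptors known to induce these keratins, 4 were called higher and 4 lower in the masses, with a median of -0.05, where 2.31% of all genes were called higher and 8.4% lower. The lower ones included the EGF receptor ligands Ereg (-1.80, adjusted p = 0.00523) and Btc (-0.81, adjusted p = 0.00714) and the interleukin 17 receptor chain Il17rc (-0.64, adjusted p = 0.00769). The higher ones were the interferon gamma receptor chains Ifngr2 (1.07, adjusted p = 0.0092) and Ifngr1, the interleukin 22 receptor chain Il22ra1 and Erbb3. Of 25 transcription factors known to act at these keratin genes, 0 were called higher and 2 lower, Jun (-0.88, adjusted p = 0.0307) and the retinoic acid receptor Rarg (-0.47, adjusted p = 0.0319), with a median of -0.14. That count is near the share of all genes called lower and is no result about these factors. In the esophagus 0 genes of these lists were called, with medians of 0.04 and -0.04.

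Of 14 proteins that bind or anchor keratin filaments, 0 were called higher in the masses and 4 lower, with a median of -0.12. This count and those that follow stand beside 2.31% of all genes called higher and 8.4% called lower. They were the plakins Eppk1 (-1.27, adjusted p = 0.0021), Evpl (-0.99, adjusted p = 0.00633) and Ppl (-0.57, adjusted p = 0.0148) and the ubiquitin ligase Stub1 (-0.41, adjusted p = 0.0161). Of 25 squamous differentiation genes, 1 was called higher and 5 lower, with a median of -0.44. The higher one was Dsc2, a desmosomal cadherin (3.404, SE 0.25, adjusted p = 6.8e-05), and the lower ones included Scel (-0.90, adjusted p = 0.00762), Sbsn (-0.999, adjusted p = 0.0082) and Crct1 (-0.66, adjusted p = 0.0295). Of 25 proliferation genes, 0 were called in either direction in the masses by limma, although all 25 lay above 0 with a median of 0.46. Their mean was 8.41, 7.21 and 7.67 in masses 412, 426 and 510 and 7.10, 7.31 and 7.46 in control forestomach 214, 216 and 217, so the groups overlapped. Of 9 neutrophil and immature myeloid genes tested, 1 was called higher in the masses, the protease Mmp9 (0.76, SE 0.21, adjusted p = 0.0381).

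**Figure D5:**
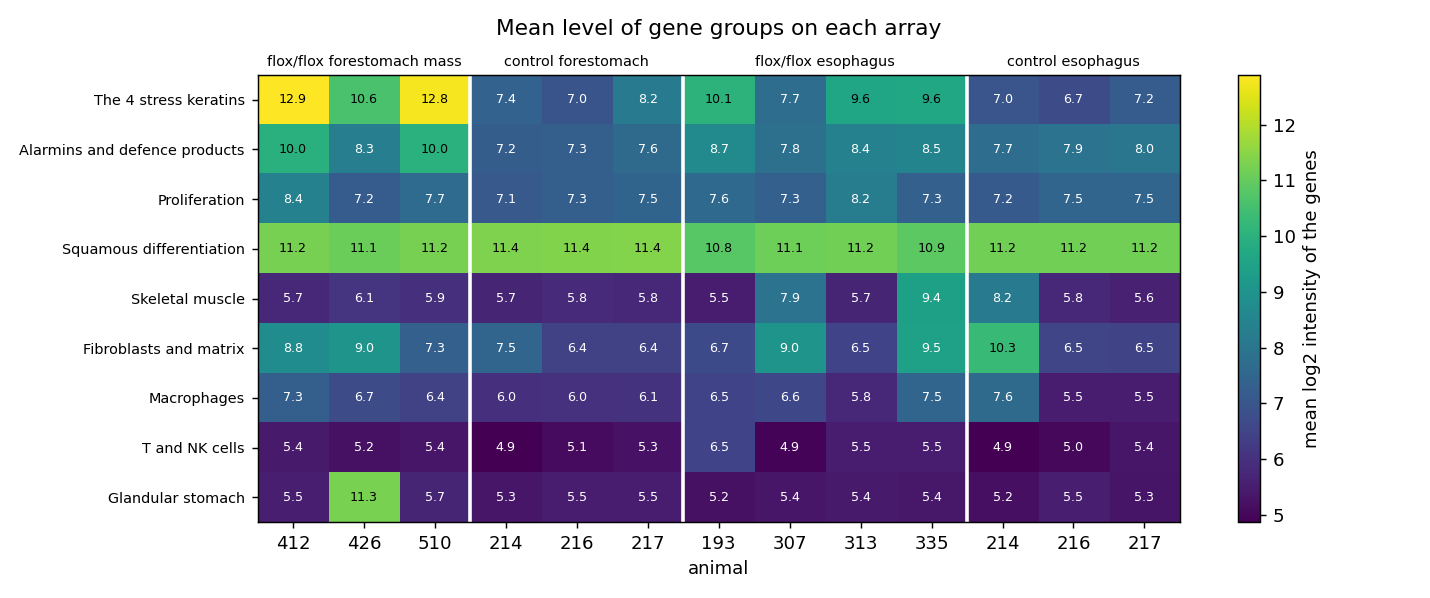
Mean log2 intensity (colour and printed value) of the 4 stress keratins and of 8 gene lists on each of the 13 arrays, labelled by animal and grouped as flox/flox forestomach mass, control forestomach, flox/flox esophagus and control esophagus. The stress keratin mean is 12.9, 10.6 and 12.8 in the masses and at most 8.2 in either control tissue, and glandular stomach genes stand out in mass 426.

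The genes whose pattern over the 13 arrays was most like the mean of the 4 stress keratins were looked up among the 15875 genes tested. Predicted, LOC, RIKEN and accession-like names were skipped, and the result is a description with no test. The r values include the differences between groups, and the values after subtraction of group means stand beside them. The 8 closest were Sprr2f (r = 0.946, group-centred 0.898), Denn2b (0.944 and 0.702), Slc6a14 (0.930 and 0.817), Rnu12 (0.924 and 0.613), H13 (0.919 and 0.856), Hpgds (0.918 and 0.863), S100a8 (0.918 and 0.834) and Urah (0.915 and 0.910). The members themselves had r = 0.887 for Krt6a, 0.907 for Krt6b, 0.936 for Krt16 and 0.914 for Krt17 with their own mean. Besides the members, 15 of the genes tested, skipped names included, had r of at least 0.9 and 44 of at most -0.9. Sprr2f, a small proline-rich protein of the cornified envelope, was at 12.03, 7.68 and 10.97 in masses 412, 426 and 510 and at 8.98, 6.10, 7.84 and 8.68 in flox/flox esophagus 193, 307, 313 and 335. Its controls lay at 6.31 to 6.65 in forestomach and 5.87 to 6.33 in esophagus. As for the keratins, mass 426 and animal 307 were the low ones of their groups, which the choice of the gene by likeness on these arrays favours. S100a8, a calcium-binding alarmin, was at 11.43, 8.05 and 12.59 in masses 412, 426 and 510, at 11.24, 5.82, 7.17 and 9.24 in flox/flox esophagus 193, 307, 313 and 335, and at 5.05 to 5.85 in all controls.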

How the data were processed

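The deposited values are intensities per probe set, made by the authors with GCRMA per the submitters' processing notes (version not given in the sources used here); the scale was judged linear from the values, and array medians were 65.3 to 72.4. The table has 34729 probe sets, annotated to a single gene (21633), to several (1306) or to none (11790); 21546 matched the RefSeq gene table (GRCm38.p6) and none was renamed. Here intensities under 1 were set to 1 (none was) and taken as log2; probe sets above 5 on at least 3 arrays were tested, and the probe set with the highest mean stood for a gene. All 13 arrays entered 1 model of group means in limma 3.58.1 under R 4.3.3 (lmFit and eBayes with 9 residual degrees of freedom), with Benjamini-Hochberg adjustment over all genes. The steps were tested on simulated data with the same spread in all groups, so unequal spread between groups was not covered. With so few arrays the estimates are imprecise. Each p-value rests on a spread per gene that all groups share, not on the groups compared alone. The mean SD of the 4 stress keratins was 1.30 in the masses and 0.39 in control esophagus. For such genes the SE and interval can be too narrow in comparisons with the masses and too wide in the esophagus. The main model also took both tissues of a control animal as independent.

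Pairing was checked on control arrays: across genes, an animal's deviations from the group means in its esophagus and forestomach correlated at 0.401 (214), 0.398 (216) and 0.315 (217), while arrays of unlike animals gave -0.425 to 0.129. Named are the 4 genes, Ctnnd1, check genes, up to 4 called genes of each list by adjusted p, and the 8 genes most alike in pattern; Krt7 to Krt20, neighbours and remaining called genes are named to complete a count. The members and gene lists were chosen with earlier results of these data known. Alternatives covered filters, probe sets, normalization, offset, weights, blocks, covariates, and each array left out. Sequences are not shown.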

Additional observations from a re-analysis of the deposited data

Results flagged for a closer look

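In the flox/flox esophagus, the one group of 4 arrays, 66 genes and lists were checked for an array far from the rest, 2 were found, and chance gives about 1 in 20. The groups of 3 arrays, with mass 426 and its glandular stomach transcripts among them, were not checked in this way. Krt19 was high in flox/flox esophagus 335, at 6.94 beside 5.50 to 5.68 in the other flox/flox animals, and the gap was 0.873 of the group's range. Urah, one of the genes most like the stress keratins, was low in flox/flox esophagus 307, at 7.32 beside 8.57 to 8.81 in the other flox/flox animals, a gap of 0.839 of the range. The choice of Urah by likeness to the keratins, which are lowest in that animal, favours such a low value. Krt6a in the same group, also lowest in animal 307, had a gap of 0.777 and stayed under the critical value of 0.829.

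For 2 genes named above the change in the masses and the change in the esophagus differed by an interaction test in limma. Defb4 had an interaction of 6.01 (SE 0.51, adjusted p = 0.00117). It was at 10.48 to 11.21 in the masses and 4.14 to 6.10 in control forestomach, and at 12.45 to 12.86 in flox/flox esophagus and 12.79 to 12.84 in control esophagus. Dsc2 had an interaction of 2.95 (SE 0.34, adjusted p = 0.00392). It was at 11.41 to 12.54 in the masses and 8.28 to 8.82 in control forestomach, and at 12.14 to 12.67 in flox/flox esophagus and 11.88 to 12.15 in control esophagus. Neither pattern was followed further.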

How the results depend on the processing

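The rises of Krt16 (5.73 to 6.98), Krt6a (4.88 to 6.72) and Krt17 (3.29 to 4.65) in the masses were called in all 28 alternatives, and no result changed direction. Krt6b in the masses was not called with no filter (2.76, adjusted p = 0.0529), array weights (2.37, adjusted p = 0.261), a variance weight per group (2.76, adjusted p = 0.182), eBayes with trend and robust (2.76, adjusted p = 0.0647), only the arrays compared (2.76, adjusted p = 0.0547) or sex, read from Xist and Y-linked genes, as a covariate (2.51, adjusted p = 0.0776); leaving out single arrays gave 2.14 to 3.18. The Krt16 interaction was called with the filter at 7 (5.17, adjusted p = 0.0347), quantile normalization (5.22, adjusted p = 0.0486), log2 of value plus 16 (5.05, adjusted p = 0.0379) and the replicate block (5.17, adjusted p = 0.0216), each of which gave 1 called interaction in place of 0; single arrays left out gave 0 to 2 called, 4.59 to 5.83 for Krt16 and 2.34 to 3.65 for Krt17. For Krt17 between the control tissues, array weights (1.15, adjusted p = 0.0198), variance weights (1.03, adjusted p = 0.0451) and only the arrays compared (1.03, adjusted p = 0.0213) gave 1 call, and the fixed replicate block gave 2, Krt17 (1.03, adjusted p = 0.0304) and Krt6b (1.55, adjusted p = 0.0104); single arrays left out gave 0 to 1 called and 0.83 to 1.18 for Krt17. In the esophagus they gave 0 to 1 called and 3.01 to 4.09 for Krt6b. The paired fits changed no other call, and the masses against flox/flox esophagus kept 2 calls throughout. Without the 3 masses the correlations of Krt6a with Krt16 (0.880, adjusted permutation p = 0.0741), Krt6a with Krt17 (0.575, adjusted permutation p = 0.229), Krt6b with Krt16 (0.803, adjusted permutation p = 0.0741) and Krt16 with Krt17 (0.662, adjusted permutation p = 0.134) were not called. Single arrays left out gave r of 0.836 to 0.941, 0.582 to 0.892, 0.615 to 0.866 and 0.626 to 0.804 for those pairs by permutation, and 0.379 to 0.501 for Krt6b with Krt17. Causes were not tested. Groups of 3 or 4 arrays limit what can be called, and Krt6a in control forestomach lies near the filter value of 5.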
